A study of Sorghum bicolor with 4 samples.

Results

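The wide chromosome peaks are the 454 regions of the deposited SbGhd7 peak list that lie on a chromosome and span 900 bp or more. They were chosen by width (peak end minus peak start) alone. They are 1.28% of the 35541 chromosome peaks, and the whole list holds 40087 peaks. The other 35087 chromosome peaks, all under 900 bp, are called narrower peaks below. The libraries came from freshly isolated sorghum mesophyll protoplasts, leaf cells without walls, that expressed SbGhd7 transiently overnight at 24 °C. Chromatin immunoprecipitated with an antibody against Myc (IP, 2 samples) was set against input chromatin that saw no antibody (2 samples). All 4 samples carried the transient SbGhd7, so IP chromatin from cells without it was not analysed here. All 4 were fixed with 1% formaldehyde for 8 min, and their libraries were amplified with 18 PCR cycles. The labels do not say whether samples of a group came from separate protoplast preparations, and the study deposited 1 list with no value per sample.

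SbGhd7 is a repressor of flowering with a CCT domain. Proteins with this domain, such as CONSTANS in Arabidopsis, are known to contact DNA together with subunits of the NF-Y complex, at short sequence elements. A peak caller for narrow peaks joins neighbouring positions whose IP signal passes a threshold over the local background, bridging short gaps, so a wide peak can hold a single broad enrichment or several close ones. The list does not tell these apart, since it gives the height at 1 position, the summit, and no profile. The smallest chromosome peak was 135 bp wide and the smallest gap between neighbours was 136 bp.

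Width ranged from 901 to 4928 bp among the wide peaks, with a median of 1054 bp and quartiles of 965 and 1258.5 bp. The median of the narrower peaks was 221 bp. Most wide peaks lay close to the limit, with 322 under 1200 bp, 68 from 1200 bp to under 1500 bp and 64 of 1500 bp or more. Only 17 reached 2000 bp. The wide peaks added up to 541.7 kb, or 5.48% of the sequence covered by chromosome peaks. The peaks nearest to the limit overlapped in fold. The 3 just inside, each of 901 bp, started at 52385135 and 59868898 of chromosome 5 and at 23040977 of chromosome 8, with folds of 2.39, 6.86 and 4.93. The 3 just outside, short of the limit by 1, 1 and 2 bp, were on chromosome 4 at 6301976, on chromosome 3 at 48645369 and on chromosome 7 at 51135070, with folds of 6.50, 6.06 and 5.13. Starts and ends are 1-based, in the coordinates of the deposited list, whose genome build is not given in the sources used here.

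The widest peak was on chromosome 9 at 7664240 to 7669167. It spanned 4928 bp and had a pileup, the number of IP fragments over the summit, of 78 (95% Poisson interval 61.7 to 97.3). The background, the number of fragments expected there from the control, was 15.9, and the fold of IP over background was 4.68 (3.71 to 5.82). The next widest, of 3911 bp, lay close by at 7672272 to 7676182, with a pileup of 84, a background of 13.8 and a fold of 5.74 (4.59 to 7.09). The one after it, on chromosome 6 at 25017923 to 25021174, spanned 3252 bp and had a fold of 3.40 (2.54 to 4.46) over a background of 14.0. These 3 were therefore long stretches of moderate fold over a raised background. Of the 10 widest, 8 were on chromosome 9 between 7643013 and 7721514. The other one outside that stretch, on chromosome 8 at 14359024 to 14361455, differed from them: it spanned 2432 bp but had a pileup of only 14 over a background of 2.41, with a fold of 4.40 (2.54 to 7.18). Fold, p and q are the authors' own values for each peak, and pileup and background were recovered from them. All intervals on pileups and folds cover counting error only, and those on folds hold the background fixed.

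Every chromosome held wide peaks. The count was 72 on chromosome 2, 66 on chromosome 1, 51 on chromosome 5, 51 on chromosome 7, 49 on chromosome 8, 46 on chromosome 9, 34 on chromosome 4, 32 on chromosome 6, 28 on chromosome 10 and 25 on chromosome 3. Per 1000 chromosome peaks this was 12.6 ± 3.16 (SD, n = 10 chromosomes), from 6.86 on chromosome 3 to 16.7 on chromosome 2. Per Mb of chromosome, chromosome 3 had 0.337 (95% Poisson interval 0.218 to 0.497) and chromosome 2 had 0.927 (0.725 to 1.17), and these intervals did not overlap. They treat peaks as independent and are too narrow where wide peaks cluster. Chromosome 6, which carries SbGhd7, had 0.522 wide peaks per Mb (0.357 to 0.737), an interval that overlaps those of both chromosomes. The widest peak of each of the other chromosomes spanned between 1601 bp, on chromosome 3 at 50857021 to 50858621, and 2432 bp, on chromosome 8. That of chromosome 10, at 46725655 to 46727810, spanned 2156 bp, that of chromosome 7, at 30307075 to 30309216, spanned 2142 bp, and that of chromosome 2, at 56727 to 58828, spanned 2102 bp. Those of chromosomes 5, 1 and 4, at 32465022, 31762267 and 11769427, spanned 2029, 1957 and 1939 bp.

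Position along the chromosome was compared because it does not enter the choice by width. In the end regions, the first and last 25% of each chromosome up to its last peak, lay 185 of 454 wide peaks, or 40.7% (95% Clopper-Pearson interval 36.2 to 45.4), and 12179 of 35087 narrower peaks, or 34.7% (34.2 to 35.2). Taken within chromosomes, the share was 41.2 ± 11.9% for wide peaks and 34.8 ± 3.32% for narrower peaks (SD, n = 10 chromosomes). The difference of 6.38 percentage points did not pass an exact two-sided sign-flip test over the 10 chromosomes (p = 0.0547), and was above 0 on 7 of 10. It rested largely on chromosome 9, with 67.4% of wide and 33.3% of narrower peaks in the end regions. On chromosomes 4, 1 and 2 the share was lower for wide than for narrower peaks, with differences of -5.64, -3.04 and -1.26 percentage points in that order. Without the 24 wide and 27 narrower peaks of the chromosome 9 stretch described below, the difference was 2.88 percentage points (exact p = 0.123). With 1 peak kept per cluster of peaks less than 10 kb apart it was -1.43 (exact p = 0.703). With a limit of 1200 bp it passed, at 11.6 percentage points (exact p = 0.0273), so the call depended on which peaks were kept.

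**Figure D1:**
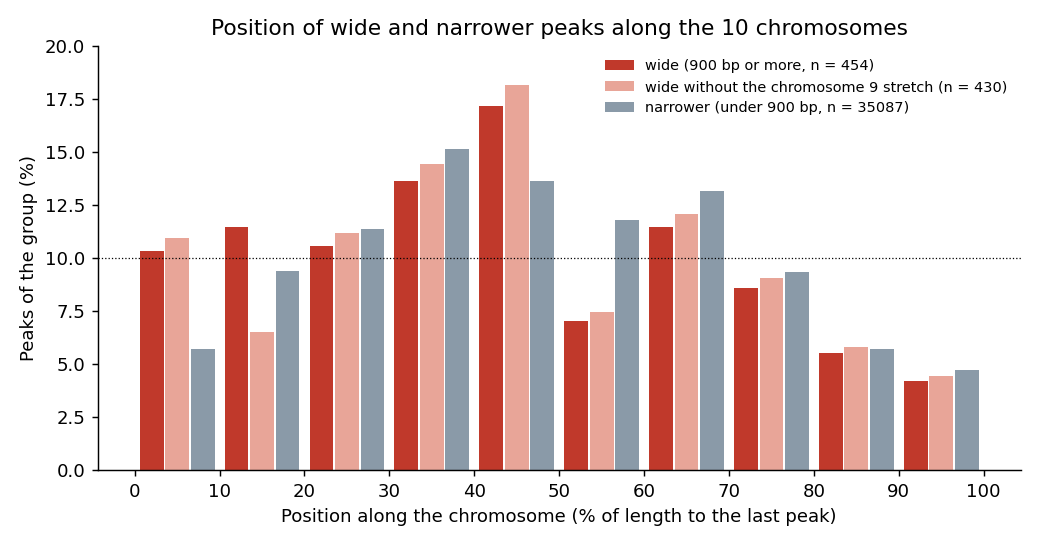
Share of peaks (%, y axis) in each 10% of the chromosome (x axis, percent of the length to the last peak), pooled over 10 chromosomes. Bars show the 454 wide peaks, the 430 left without the chromosome 9 stretch and the 35087 narrower peaks, and the dotted line marks an even spread of 10%. Of the wide peaks 10.4% were in the first 10% of the length, against 5.72% of narrower peaks, and 7.05% against 11.8% were at 50 to 60%. Without the stretch, the share of wide peaks at 10 to 20% was 6.51% in place of 11.5%.

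In classes of 10% of the length the wide peaks were most frequent at 40 to 50%, with 17.2% of them against 13.6% of narrower peaks. They were least frequent in the last 10%, with 4.19% against 4.75%. Of the wide peaks, 17 lay in the outermost 1 Mb, or 3.74% (2.20 to 5.93), against 686 narrower peaks, or 1.96% (1.81 to 2.11). Of these 17, 9 belonged to a single stretch at the start of chromosome 2, and without the stretches on chromosomes 2 and 9 the shares were 1.90% (0.824 to 3.71) and 1.86% (1.73 to 2.01). No wide peak bordered a stretch of over 1 Mb without peaks. The share of all chromosome peaks that border such a stretch was not counted, so nothing is read from this.

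The summit sat farther from the middle in wide peaks, relative to width. On a scale where 0% is the peak centre and 100% an edge, the median summit was at 49.8% for wide peaks, 41.5% for the peaks from 300 bp to under 900 bp and 36.4% for all narrower peaks. The summit lay in the first or last 20% of the width in 178 wide peaks, or 39.2% (34.7 to 43.9), against 26.1% (25.2 to 27.0) of peaks from 300 bp to under 900 bp and 22.8% (22.4 to 23.3) of all narrower peaks. It lay in the middle 20% in 77 wide peaks, or 17.0% (13.6 to 20.7), against 28.1% (27.6 to 28.6) of all narrower peaks. Among peaks from 300 bp to under 900 bp this share was 23.3% (22.5 to 24.2). There was no preferred side: 228 of 454 summits, or 50.2% (45.5 to 54.9), were before the centre of the peak. In each chromosome the median distance was larger for wide than for narrower peaks, by 14.4 ± 8.19 points (SD, n = 10 chromosomes). The difference ran from 3.21 on chromosome 1 to 33.3 on chromosome 4. Against peaks from 300 bp to under 900 bp it was 9.60 ± 8.36 points, and above 0 on 9 of 10 chromosomes. The summit comes from the same signal as the width, so these values are a description with no test.

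**Figure D2:**
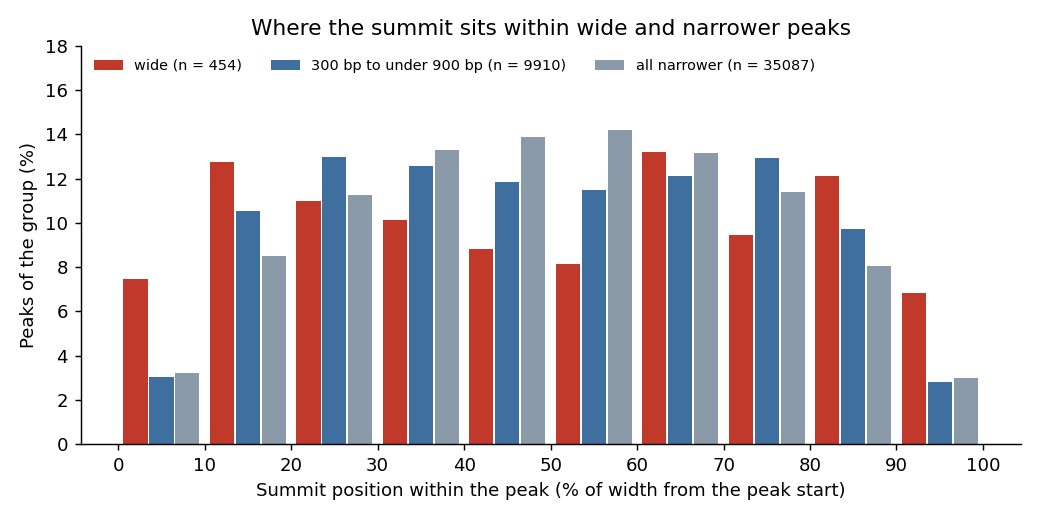
Share of peaks (%, y axis) with the summit in each 10% of the peak (x axis, percent of the width from the peak start), for the 454 wide peaks, the 9910 peaks from 300 bp to under 900 bp and all 35087 narrower peaks. Narrower peaks form a dome with 14.2% in the class just after the centre, which holds 8.15% of wide peaks. The first and last classes hold 7.49% and 6.83% of wide peaks, against 3.24% and 3.01% of all narrower peaks.

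In base pairs, the longer side of a wide peak, from the summit to the farther edge, had a median of 815 bp and the shorter side 276 bp, against 153 and 70 bp in narrower peaks. The summit was 200 bp or less from an edge in 165 wide peaks, or 36.3% (31.9 to 41.0). This was less common than in peaks from 300 bp to under 900 bp, with 88.3% (87.6 to 88.9). Among all narrower peaks it was 96.7% (96.5 to 96.9), since short peaks leave little room for a larger distance. The summit nearest to an edge relative to width was on chromosome 5 in the peak at 35428460 to 35430166, 49 bp from the start of 1707 bp. Its pileup was 18, its background 3.29 and its fold 4.43 (2.72 to 6.87). The next were 29707934 to 29709325 of chromosome 7 and 17638984 to 17640016 of chromosome 8, each with the summit 45 bp from the end, with folds of 4.62 and 4.39 and pileups of 16 and 14. These 3 peaks thus reached 989 bp or more beyond a summit of 18 fragments or fewer. The summit was closer to the centre in the 64 peaks of 1500 bp or more, with a median distance of 39.6%, than in the 322 under 1200 bp, with 52.8%. In the peaks of 1500 bp or more it was 47.1% without the 16 from the chromosome 9 stretch.

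The fold was moderately higher in wide peaks than in narrower ones. Its median was 4.71 (quartiles 4.16 and 5.26) in wide peaks and 3.73 (3.30 and 4.27) in narrower peaks. Within chromosomes the median was higher in wide peaks on 10 of 10, by 1.00 ± 0.176 (SD, n = 10), from 0.724 on chromosome 6 to 1.24 on chromosome 9. Against the peaks from 300 bp to under 900 bp of the same chromosome the difference was 0.590 ± 0.164. At least a 5-fold enrichment was found in 173 wide peaks, or 38.1%, where 8.47% of all chromosome peaks had it. A −log10 q of 5 or more was reached by 311 wide peaks, or 68.5%, where 18.3% of all chromosome peaks reached it. Among peaks from 300 bp to under 900 bp the shares were 16.4% for fold and 34.3% for q. Fold, q and width come from the same IP signal, so nothing about the wide peaks is read from these shares. All 454 had a q of 0.05 or less, but only 0.571% of all chromosome peaks had a q above 0.05. Nothing is read from this either.

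**Figure D3:**
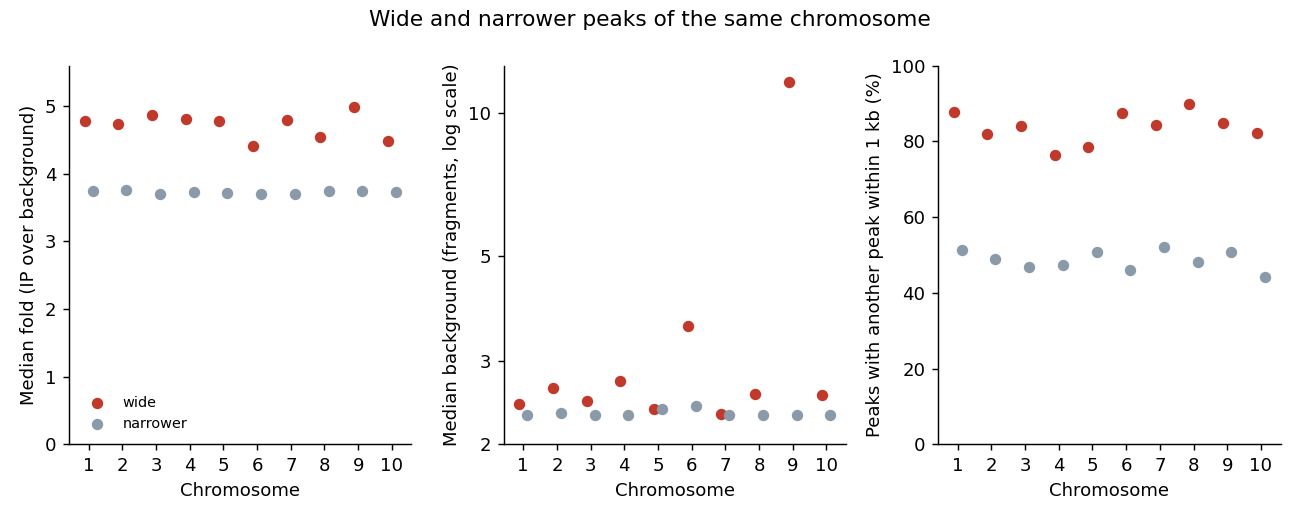
Median fold of IP over background (left), median background in fragments on a log scale (middle) and share of peaks with another peak within 1 kb in % (right), for the wide and the narrower peaks of each of the 10 chromosomes (x axis). The median fold of wide peaks lies between 4.42 and 4.99, above 3.69 to 3.76 for narrower peaks. The median background of wide peaks is 11.6 on chromosome 9 and at most 3.56 elsewhere.

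The chromosome peaks of highest fold were all narrower peaks, but such folds were rare. Among the 46 chromosome peaks enriched at least 8-fold, 0 were wide. A count of 0 of 454 allows a share of up to 0.661% by the limit of 3 counts, and the Clopper-Pearson upper bound is 0.809%. The share in narrower peaks, 46 of 35087 or 0.131%, lies below both, so the 0 does not set the wide peaks apart. The highest fold of a wide peak was 7.71 (5.01 to 11.4), on chromosome 4 at 11769427 to 11771365, with a pileup of 23 and a background of 2.11. The next were 7.60 (4.88 to 11.3) at 53042856 to 53043762 of chromosome 2 and 7.54 (5.10 to 10.8) at 50857021 to 50858621 of chromosome 3. Then came 7.52 (4.88 to 11.1) at 19653212 to 19654889 of chromosome 2 and 7.30 (4.64 to 11.0) at 51630623 to 51631956 of chromosome 8. The intervals of these 5 overlap. All 5 had backgrounds of 2.01 to 2.85 and pileups of 21 to 28, so they were wide and of relatively high fold without a raised background. By class of fold, the wide peaks made up 0.294% (0.147 to 0.525) of chromosome peaks enriched less than 3-fold, 1.90% (1.64 to 2.19) of those at 4 to 5, 5.41% (4.56 to 6.37) of those at 5 to 6 and 12.9% (5.74 to 23.9) of those at 7 to 8.

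Few fragments lay over the summit of the typical wide peak, and the list gives no count over the whole peak. The median pileup was 16 (quartiles 14 and 21) in wide peaks and 12 (10 and 14) in narrower peaks. In 327 wide peaks, or 72.0%, the pileup was under 20. Such pileups were more common still in narrower peaks: the 95th percentile of the pileup was 20 there and 77.4 in wide peaks. The median background was 2.62 (2.19 and 3.72) in wide peaks and 2.30 (2.08 and 2.74) in narrower peaks. Compared with the narrower peaks of the same chromosome and the same of 8 classes of background (limits at 2, 2.5, 3, 4, 5, 10 and 20 fragments), the fold was above their median in 415 of 454 wide peaks, by a median of 1.02, and the pileup was higher by a median of 4 fragments. In the median, then, a wide peak at a given background differed from its narrower neighbours in class by a few fragments at the summit. These values are descriptive too.

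A minority of wide peaks had a raised background. It was 5 or more fragments in 71 wide peaks, or 15.6% (12.4 to 19.3), against 3.61% (3.42 to 3.81) of narrower peaks, and 10 or more in 44, or 9.69% (7.13 to 12.8), against 0.881% (0.786 to 0.984). Seen from the background, wide peaks made up 0.568% (0.400 to 0.782) of chromosome peaks with a background under 2 and 1.09% (0.933 to 1.27) at 2 to 2.5. Their share was 3.34% (2.30 to 4.69) at 4 to 5, 2.74% (1.81 to 3.96) at 5 to 10 and 12.6% (8.83 to 17.2) at 10 to 20. It was 12.7% (5.27 to 24.5) at 20 to 50 and 11.1% (3.11 to 26.1) at 50 or more. The chromosome 9 stretch held 23 of the 33 wide peaks at 10 to 20. Without it that class had 4.55%, and the classes above were unchanged. The highest background of a wide peak was 71.5, on chromosome 1 at 31762267 to 31764223, where a pileup of 307 gave a fold of 4.25 (3.79 to 4.75) and the largest −log10 q of a wide peak, 89.6. The wide peak just before it, 211 bp away at 31761033 to 31762055, had a pileup of 235, a background of 55.5 and a fold of 4.18 (3.66 to 4.74). Another on chromosome 1, at 32815267 to 32817172, had a pileup of 289, a background of 63.7, a fold of 4.48 (3.98 to 5.02) and a −log10 q of 89.5. These 3 led the wide peaks by −log10 q with folds below their median. On chromosome 9 at 27462309 to 27463342 a background of 71.0 went with a pileup of 174 and a fold of 2.43 (2.09 to 2.82). The next highest background, 27.8, was on chromosome 2 at 47820 to 48899, with a pileup of 76 and a fold of 2.67 (2.11 to 3.34).

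**Figure D4:**
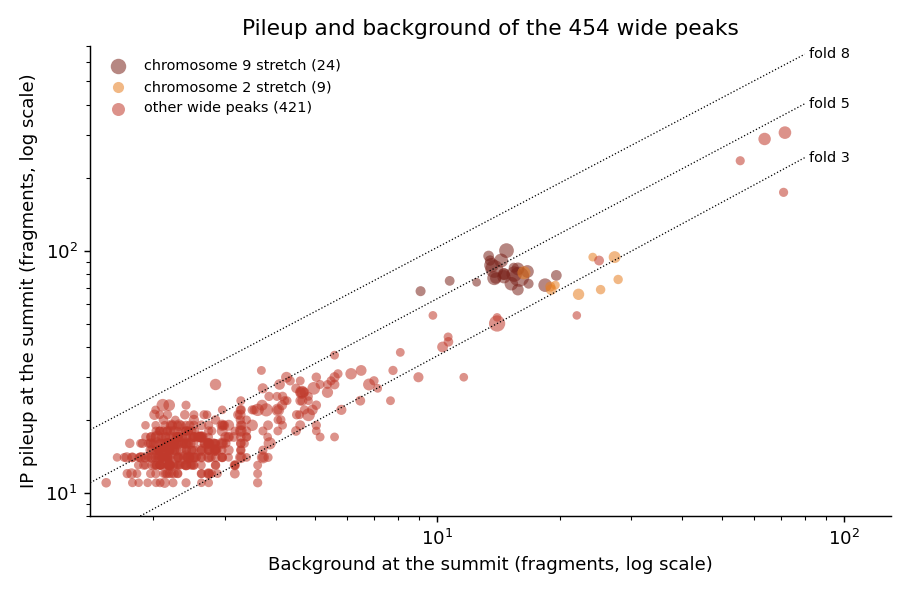
IP pileup (y axis, fragments, log scale) against background (x axis, fragments, log scale) at the summit of the 454 wide peaks, with larger points for wider peaks and dotted lines at folds of 3, 5 and 8. Most points sit near a background of 2.62 and a pileup of 16, no point reaches the line of fold 8, and the 24 peaks of the chromosome 9 stretch and the 9 of the chromosome 2 stretch form groups at pileups of 66 to 100.

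Wide peaks had close neighbours. Another peak lay within 1 kb, edge to edge, of 381 wide peaks, or 83.9% (80.2 to 87.2), against 62.2% (61.2 to 63.1) of peaks from 300 bp to under 900 bp and 48.8% (48.3 to 49.3) of all narrower peaks. Peaks lay within 1 kb on both sides of 186 wide peaks, or 41.0% (36.4 to 45.6), against 14.8% (14.5 to 15.2) of narrower peaks. Among peaks from 300 bp to under 900 bp this share was 21.7% (20.9 to 22.5). Within chromosomes the share with a peak within 1 kb was higher for wide than for narrower peaks on 10 of 10, by 35.1 ± 4.76 percentage points (SD, n = 10). The median gap to the nearest peak was 373 bp for wide and 1052 bp for narrower peaks, and the median number of other peaks within 10 kb was 7 and 4. Where 1 peak ends and the next begins is set by the same calling step as the width, so no test is given. The largest number of other peaks within 10 kb was 22, around the peak on chromosome 5 at 52385135 to 52386035, which had a background of 22.0 and a fold of 2.39. The peaks starting at 47293272 of chromosome 5 and 29339944 of chromosome 8 had 17 each, with backgrounds of 8.10 and 4.09 and folds of 4.28 and 5.70.

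The nearest neighbour of a wide peak was usually an ordinary peak. It had a median width of 317 bp, a median fold of 4.01, a median pileup of 14 and a median background of 2.52, against 226 bp, 3.75, 12 and 2.30 for the nearest neighbours of narrower peaks. In 39 cases, or 8.59% (6.18 to 11.6), it was itself wide, against 436 narrower peaks, or 1.24% (1.13 to 1.36). Outside the chromosome 9 stretch this held for 27 of 430 wide peaks, or 6.28%, and for 1.21% of narrower peaks.

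Most wide peaks, 277 of 454, had no other wide peak within 50 kb, while the other 177, or 39.0% (34.5 to 43.6), had one. Of the narrower peaks, 12.9% (12.6 to 13.3) had a wide peak within 50 kb, and of those from 300 bp to under 900 bp 17.1% (16.4 to 17.8). Without the chromosome 9 stretch the shares were 35.6% (31.1 to 40.3) for wide and 12.8% (12.5 to 13.2) for narrower peaks. Joined where the gap between them was 50 kb or less, a distance chosen after their positions had been seen, they formed 338 groups, of which 277 held 1 wide peak, 44 held 2 and 17 held 3 or more. The groups of 3 or more held 89 wide peaks. The largest held 24, on chromosome 9, and the next 9, on chromosome 2, then 7 between 29326912 and 29382308 of chromosome 8 and 6 between 59788807 and 59869798 of chromosome 5. The groups on chromosomes 8 and 5 had median backgrounds of 5.04 and 2.20 at their wide peaks. Thus some groups lay at a background near that of all narrower peaks and others well above it. A group of 4 on chromosome 6 at 1700845 to 1709269 had wide peaks over 66.3% of its 8.43 kb at a median background of 2.52, with folds of 4.11 to 6.06.

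The chromosome 9 stretch ran from 7604614 to 7721514. In 0.197% of the length of the chromosome it held 24 of its 46 wide peaks, together with 27 narrower peaks, and the peaks covered 52.6% of its 116.9 kb. The pileup of the wide peaks ranged from 68 to 100 with a median of 79.5, and their background from 9.09 to 19.6 with a median of 14.6. Their folds ranged from 3.76 to 6.84 with a median of 5.22. The other 22 wide peaks of chromosome 9 had a median pileup of 16, a median background of 2.32 and a median fold of 4.72. The median width was 1874 bp in the stretch and 1016 bp for the other wide peaks of the chromosome. In the stretch the narrower peaks were also raised, with a median pileup of 61, a median background of 11.4 and a median fold of 4.63, against 12, 2.30 and 3.74 for the 2984 narrower peaks elsewhere on chromosome 9. The median background of the wide peaks was 6.34 times that of the narrower peaks outside.

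At both edges of the chromosome 9 stretch the background changed between neighbouring peaks of the list. The last peak before it with a background under 5 was at 7581535 to 7581688, with 2.27, and 18.9 kb later came 3 narrower peaks with backgrounds of 7.12 to 11.3. After the last wide peak 2 narrower peaks had backgrounds of 15.8 and 10.5, and the next peak, 149.6 kb beyond, had 2.30. The list gives no value between peaks. The signal in gaps of the stretch, such as from 13.7 to 27.6 kb after its start, is therefore unknown. The peaks inside the stretch with a background under 5 lay next to each other. From 7687792 to 7692152 lay 5 narrower peaks with pileups of 10 to 12 and backgrounds of 2.23 to 3.07, as elsewhere on the chromosome. In the stretch the wide peaks had a higher median background (14.6) and pileup (79.5) than the narrower peaks (11.4 and 61). Single narrower peaks had backgrounds of up to 16.3. The part of the background in the width of these peaks was not tested. The wide peaks of the stretch with the largest −log10 q, 44.8 and 44.3, had folds of 6.40 (5.22 to 7.77) at 7718852 to 7721514 and 6.68 (5.42 to 8.16) at 7606087 to 7607489.

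**Figure D5:**
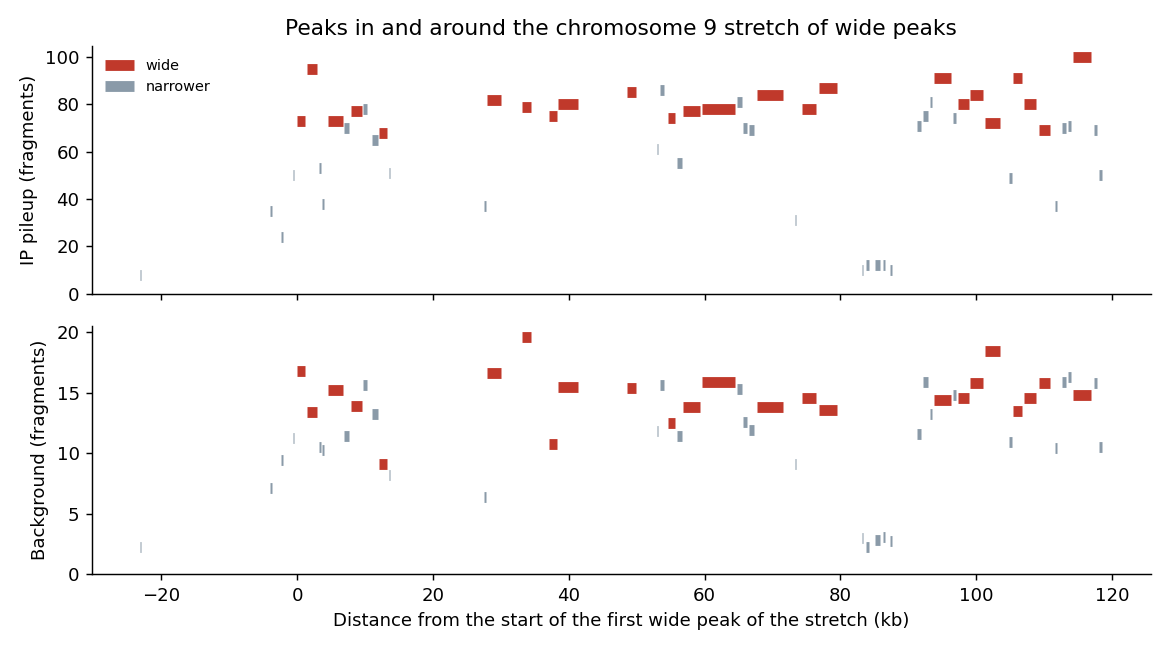
IP pileup (top) and background (bottom), in fragments at the summit, of the peaks in and around the chromosome 9 stretch; each bar spans a peak to scale, and the x axis gives the distance in kb from the start of the first wide peak. Wide peaks sit at pileups of 68 to 100 and backgrounds of 9.09 to 19.6, and the 5 narrower peaks inside with pileups of 10 to 12 stand below all others of the stretch.

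The chromosome 2 stretch ran from 4763 to 102167, near the start of that chromosome, and the peaks covered 28.1% of its 97.4 kb. Its 9 wide peaks had pileups of 66 to 94 and backgrounds of 16.3 to 27.8, with a median of 22.2, or 9.55 times the median of narrower peaks elsewhere on chromosome 2. Their folds were 2.67 to 4.73, with a median of 3.49. These pileups lay within or just under the range of the chromosome 9 stretch, over a higher median background and with a lower median fold. The 33 narrower peaks between them had a median background of 17.4 and a median fold of 2.95. Before the stretch, 5 peaks at 82 to 4620 had backgrounds of 12.5 to 25.7. The next peak after the stretch was 84.5 kb away and had a background of 1.84.

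Without both stretches 421 wide peaks remained. Their median width was 1046 bp, their median fold 4.70, their median pileup 16 and their median background 2.52. A background of 10 or more was then found in 12, or 2.85% (1.48 to 4.93), against 0.737% (0.650 to 0.832) of narrower peaks, and another peak within 1 kb in 83.1% (79.2 to 86.6), against 48.7% (48.2 to 49.2). The median summit was at 51.4% of the way from the centre to an edge, against 36.4%. The differences from narrower peaks in fold, summit position and close neighbours were thus of like size without the 2 stretches, while the raised backgrounds were fewer.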

How the data were processed

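Per the submitters' processing notes, the tools were BWA 0.7.17.2 and MACS2 2.2.7.1. Their settings, the build and any pooling of samples: not given in the sources used here. The authors deposited 1 headerless list of 10 columns. Its deposited fold ratio is IP over local background at the summit, its 2 deposited significance columns hold p-value and q-value as −log10, and its deposited score was not used. Depth per library is unknown. Pileup and background were solved from the fold, a ratio of both quantities with 1 added to each, together with the Poisson p-value, as MACS2 is known to compute them. All 40087 peaks gave exactly 1 whole-number pileup within a relative tolerance of 2e-05, and the solution was checked on simulated data. The control is taken to be the input. Positions were compared by an exact two-sided sign-flip test over chromosomes, which treats chromosomes as independent units although they share libraries. Single chromosomes were also checked as outliers in 7 measures, as given below. All other comparisons are descriptive. Intervals are 95% Poisson or Clopper-Pearson and cover counting error only, since amplified fragments are not independent molecules. Those on counts and shares of peaks also treat peaks as independent, and are too narrow where peaks cluster. Chromosome length is the end of the last peak.

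Among wide peaks the text names the 10 widest, the 5 highest by fold, by −log10 q and by background, the 3 with the summit nearest to an edge, the 3 with most peaks within 10 kb, the widest of each chromosome, and the 3 peaks on each side of the width limit. Groups of wide peaks were named after seeing them. The members, rules and alternatives were chosen with earlier results of these data known. Genome sequence and gene annotation were not used here. Computation used scipy 1.17.1, numpy 2.4.6 and pandas 2.3.3 in Python 3.11.15, with figures by matplotlib 3.10.9.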

Additional observations from a re-analysis of the deposited data

Results flagged for a closer look

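Chromosome 9 stood apart from the other 9 chromosomes in 3 of 7 measures examined, by the gap to the nearest chromosome relative to the whole range, against a 95% critical value of 0.466. Chance flags about 1 in 20 such groups, and the 3 measures rest on the same 24 wide peaks. The share in the end regions was higher for wide than for narrower peaks of chromosome 9 by 34.1 percentage points, where the next chromosome had 9.59. The median background of wide peaks was higher by 9.30 fragments, where the next chromosome had 1.15. The median pileup was higher by 58.5 fragments, where the next had 6. Outside the stretch at 7604614 to 7721514, the wide and the narrower peaks of chromosome 9 had 31.8% and 32.7% in the end regions, median backgrounds of 2.32 and 2.30 fragments, and median pileups of 16 and 12 fragments. The cause of the raised values in the stretch was not tested.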

How the results depend on the processing

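No paired analysis was possible because no column of the list belongs to a sample, so leaving out a replicate could not be tried either. The number of wide peaks was 454 at 900 bp, 1073 at 700 bp, 132 at 1200 bp and 64 at 1500 bp. The difference in the share in the end regions, 6.38 percentage points (exact sign-flip p = 0.0547), ranged from -1.43 to 16.2 over 12 alternatives. It passed 0.05 in 3 of them: 11.6 with 1200 bp (exact p = 0.0273), 11.1 at a −log10 q of at least 5 (exact p = 0.0176), and 7.83 against peaks from 300 bp to under 900 bp (exact p = 0.0332), the last chosen after seeing the data. It reversed to -1.43 with 1 peak per 10 kb cluster (exact p = 0.703). It was 2.88 without the chromosome 9 stretch, 5.42 without the chromosome 2 stretch and 3.29 without chromosome 9, and passed in none of these, which were also chosen after seeing the data. The difference in median fold kept its direction in all 8 alternatives and was 0.590 against peaks from 300 bp to under 900 bp. The mean difference in summit distance from the centre kept its direction in all 7, from 8.15 to 15.4 points. At 1200 bp it was above 0 on 8 of 10 chromosomes. At 1500 bp, and against peaks from 300 bp to under 900 bp, it was so on 9 of 10. The difference in the share with another peak within 1 kb kept its direction in all 10. It was 30.3 with a gap of 500 bp, 18.6 with 5 kb, 11.6 with 10 kb, 29.3 with 700 bp and 25.2 at a −log10 q of at least 5, against 35.1. Of the wide peaks, 177 had another within 50 kb and 151 within 10 kb. The counts moved because each threshold keeps other peaks; for the other values the cause was not tested. Of the wide peaks, 72.0% have a pileup under 20, so their folds and summit positions are imprecise. This applies no less to the narrower peaks, with a median pileup of 12.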
